A study of Mus musculus with 5 samples.

Results

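The genes of oxidative phosphorylation were followed in tdTomato+ cells sorted from mouse retinas. Members were chosen by symbol: the subunits and assembly factors of complex I (*Nduf*), the subunits of complexes III (*Uqcr*), IV (*Cox4* to *Cox8*) and V (*Atp5*), and the genes of the mitochondrial genome (*mt-*). Of 33696 genes in the tables, 106 carried such a symbol, and 103 of them had at least 100 UMIs (unique molecular identifiers, 1 tag per captured RNA molecule) over all libraries. The 103 members comprised 90 nuclear genes and 13 *mt-* genes. The dropped genes were *Cox7b2* with 94 UMIs, *Cox8c* with 2 and *Ndufb11b* with 0, and the kept member nearest the limit was *Cox6a2* with 259.

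Oxidative phosphorylation passes electrons from NADH and succinate through complexes I to IV of the inner mitochondrial membrane to oxygen, and complex V makes ATP from the proton gradient that results. Most subunits are encoded in the nucleus and imported, whereas a few core subunits are encoded and transcribed inside the mitochondrion. Photoreceptors are packed with mitochondria and use oxygen heavily, whereas Müller glia (MG), the radial glia of the retina, are known for a strongly glycolytic metabolism.

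All animals were adult *Glast-CreERT2; Rosa26-Ai65* mice on the C57BL/6J background, 12 to 20 weeks old, males and females pooled, treated with tamoxifen. They received ShH10 AAV with a *Gfap* promoter carrying either *mKate2* (control, 16 retinas pooled) or *Yap5SA*, a YAP variant that Hippo kinases cannot inactivate (21 retinas pooled), each with FlpO, and were taken 56 days later. tdTomato in this design needs both Cre, driven by *Glast*, and FlpO, driven by *Gfap*, so the reporter was meant for MG and their progeny. Cells of other types in the sort are therefore described as found, without a claim on their origin. Because retinas were pooled, p-values measure the spread between libraries and not between animals.

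Values from 4 libraries are given in 1 order throughout: *mKate2* AAV replicate 1, *mKate2* AAV replicate 2, *Yap5SA* AAV replicate 1, *Yap5SA* AAV replicate 3. *Yap5SA* AAV replicate 2 was left out because 1361 of its barcodes, 99.8% of the smaller set, were those of replicate 1. The 4 libraries held 2748, 7729, 1407 and 3409 barcodes and 13614102 to 50938304 UMIs. Their headers named Cell Ranger 8.0.0 for both replicates 1 and 9.0.1 for *mKate2* AAV replicate 2 and *Yap5SA* AAV replicate 3, so each version held 1 library per AAV. MG were cells of at least 1000 UMIs in which *Glul*, *Rlbp1*, *Slc1a3*, *Clu* and *Aqp4* made up at least 0.5% of UMIs. Between 78 and 233 cells a library lay within 0.4% to 0.6%, next to the limit. The rule gave 1642, 3801, 845 and 1585 MG with median depths of 5208.5, 2577, 10172 and 2730 UMIs. Of the MG markers that the rule did not use, *Sox9* lay between 430.0 and 703.6 CPM (UMIs of the gene per 1000000 UMIs of the summed cells) in MG and at most 9.38 in rod-like and microglia-like cells. *Lhx2* lay between 142.2 and 257.7 in MG and at most 5.16 in those cells. *Dkk3*, *Kcnj10*, *Car14* and *Crym* were also higher in MG than in those cells. *Apoe* was instead higher in microglia-like cells, at 19041 to 32147 against 5945 to 10844 in MG. *Vim* overlapped between MG (876.6 to 1426) and microglia-like cells (587.7 to 999.6). Cells outside the rule were clustered without the members and named from markers. The named clusters were microglia- and macrophage-like cells in all 4 libraries (33, 952, 166 and 67 cells), and rod-like, cone-like, bipolar-like, amacrine-like, ganglion-like and pericyte-like cells, mainly in the 9.0.1 libraries. Under 10 cells of any of these 6 types came from either 8.0.0 library. A further cluster of 140 cells carried MG markers without meeting the rule. Ganglion-like cells (173 in all), pericyte-like cells and that cluster entered no test.

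In MG, nuclear members took 1.54%, 1.76%, 1.94% and 1.78% of all UMIs. The *mt-* members took 3.32%, 6.46%, 2.94% and 4.87%. The nuclear share thus lay in a narrow band, whereas the *mt-* share was lowest in the 2 libraries of Cell Ranger 8.0.0 and highest in those of 9.0.1. By complex, nuclear complex I took 5565 to 6950.5 CPM, its assembly factors 239.0 to 329.9, complex III 1545 to 1963, complex IV 4192 to 5314 and complex V 3834 to 4880.3. The members ranged from *Cox6a2*, an isoform of striated muscle, at a mean of 0.43 CPM, to *mt-Nd4*, a membrane subunit of complex I, at 6247 ± 2476 (SD, n = 4). Values are tags of the RNA's end, 1 per molecule and not scaled by length.

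The first comparison asked whether MG that had received *Yap5SA* AAV carried a different level of these genes from control MG. No member passed the test between the AAVs. edgeR's quasi-likelihood test on counts summed per library called 0 of 102 members tested and 0 of 15286 genes in either direction (0% called), and DESeq2 also called 0. At an unadjusted p under 0.05, 34 genes and 0 members were counted. The median log2 difference, *Yap5SA* minus *mKate2*, was 0.05 for nuclear members, -0.45 for *mt-* members and -0.03 for all genes tested.

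For the summed shares, an exact test of 2 against 2 libraries cannot go below p = 0.333, so it cannot decide between the AAVs. Both *Yap5SA* libraries (1.94% and 1.78%) lay above both *mKate2* libraries (1.54% and 1.76%) in the nuclear share. The nuclear share was 1.65% ± 0.152 (SD, n = 2) with *mKate2* AAV and 1.86% ± 0.112 (n = 2) with *Yap5SA* AAV, a difference of 0.214 percentage points (exact permutation p = 0.333, two-sided, the smallest that 2 against 2 libraries can give). The difference was 0.401 within Cell Ranger 8.0.0 and 0.027 within 9.0.1. The *mt-* share was 4.89% ± 2.22 and 3.90% ± 1.37 (exact permutation p = 0.667, n = 2 each), and its spread within an AAV was larger than the difference of -0.987 points. It was -0.384 within 8.0.0 and -1.59 within 9.0.1. Without *mKate2* AAV replicate 2 it was 0.582, a value that sets libraries of both versions against 1 of 8.0.0. The log2 ratio of nuclear to *mt-* UMIs was -1.11, -1.88, -0.59 and -1.45, a difference of 0.47 between the AAVs (exact permutation p = 0.667, n = 2 each), and of 0.51 within 8.0.0 and 0.43 within 9.0.1.

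Among single members, 35 of 89 nuclear members tested were higher in both *Yap5SA* libraries than in both *mKate2* libraries and 0 were lower. Of all genes tested, 12.4% were so ordered upward and 3.11% downward, and 0 of 13 *mt-* members were in either group. *Atp5k*, a small subunit of complex V, was the clearest of these, at 203.2 and 207.7 CPM with *mKate2* AAV and 306.5 and 299.8 with *Yap5SA* AAV. Its log2 difference of 0.44 (SE 0.27) did not pass the test (edgeR adjusted p = 1.00). In MG of at least 10000 UMIs only 1 of 89 nuclear members was ordered upward and 1 downward, against 7.87% and 4.80% of all genes tested there. The excess of nuclear members over the background was thus not seen in the deep cells.

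The share taken by the members moved with the depth of the cell more than with the AAV. In MG of 1000 to under 2000 UMIs the nuclear members took 2.25%, 2.48%, 2.81% and 2.65%, and in MG of at least 10000 UMIs 1.46%, 0.988%, 1.88% and 0.885%. The *mt-* members took 13.2%, 13.2%, 9.52% and 11.2% in the shallow MG, and 2.39%, 2.48%, 2.65% and 1.04% in the deep MG. Both sets were lower in deep than in shallow MG in 4 of 4 libraries. In MG of at least 10000 UMIs the nuclear share of *Yap5SA* AAV was above that of *mKate2* AAV in replicates 1 (1.88% against 1.46%) and below it in the 9.0.1 libraries (0.885% against 0.988%). In each of the 3 shallower bins *Yap5SA* AAV was the higher in both versions, by the widest gap at 2000 to under 5000 UMIs in replicates 1 (2.90% against 2.21%).

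RNAs retained in the nucleus (*Malat1*, *Neat1* and *Meg3*) moved the other way. They took 1.84%, 0.134%, 1.62% and 0.145% of UMIs in MG of under 2000 UMIs and 8.44%, 5.15%, 7.84% and 6.69% in deep MG. In the deep MG of the 9.0.1 libraries, dissociation genes such as *Fos* took 2.96% and 2.02%. Their part in the members' shares was not tested.

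**Figure D1:**
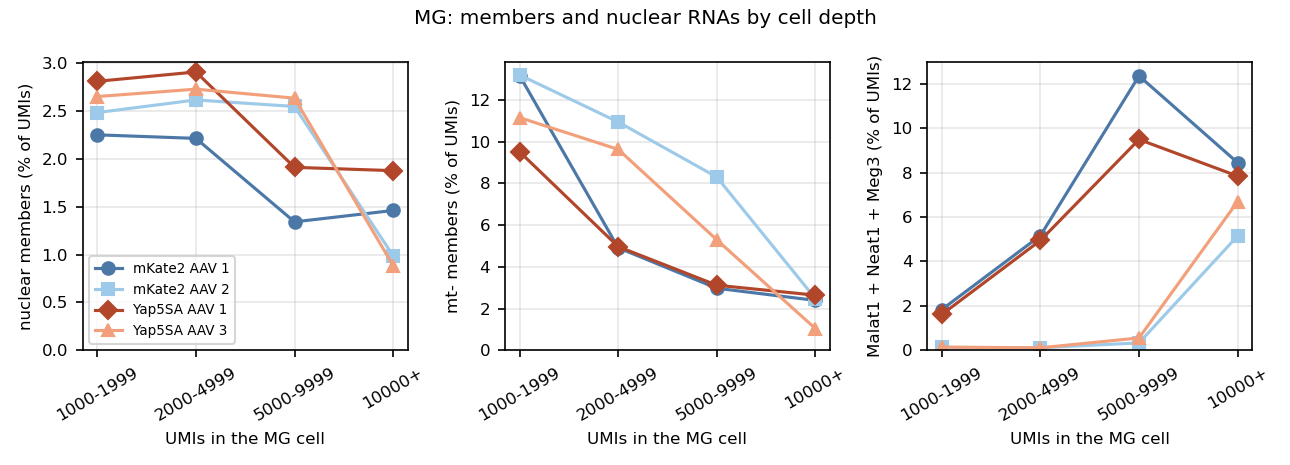
Share of UMIs of MG (vertical axes, %) by the number of UMIs in the cell (horizontal axis), for nuclear members, *mt-* members and the 3 nuclear RNAs, with 1 line per library and the MG of a depth bin summed. In 9.0.1 libraries the nuclear members stay between 2.48% and 2.73% below 10000 UMIs and lie at 0.988% and 0.885% above that.

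From cell to cell, the nuclear and *mt-* members did not go together. With each MG cell thinned to 1000 UMIs, the Spearman correlation of both shares was -0.14, 0.04, -0.27 and 0.00 over 1642, 3801, 845 and 1585 cells. The nuclear members went with the cytosolic ribosomal protein genes instead, most in the replicates 1, with 0.76, 0.25, 0.78 and 0.27. The *mt-* members went with the ribosomal protein genes only in the 9.0.1 libraries, with 0.11, 0.58, -0.04 and 0.64. The cells of a library share its depth profile and its free RNA, and these values are a description without a test. Across the 27 clusters outside the MG rule, the nuclear share had a Spearman correlation of 0.77 with the ribosomal share and of 0.51 with the *mt-* share, again as a description, since clusters share libraries and differ in depth.

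The second comparison set each cell type against MG of the same libraries. With all cells of at least 1000 UMIs, nuclear members took 1.71% and 1.84% of UMIs in rod-like cells, in *mKate2* AAV replicate 2 and *Yap5SA* AAV replicate 3. Cone-like cells had 1.46% and 1.37%, bipolar-like cells 1.06% and 1.04%, and amacrine-like cells 0.900% and 0.884% in the same libraries. MG had 1.76% and 1.78% there. Rod-like cells and MG therefore overlapped, and the other neurons lay below both.

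This order changed with depth. The median MG cell of these libraries had 2577 and 2730 UMIs, whereas the median amacrine-like cell had 18961 and 10248 and the median bipolar-like cell 21071 and 18419. With cells of at least 10000 UMIs only, the nuclear share was 0.988% and 0.885% in MG (366 and 167 cells), 1.53% and 1.43% in rod-like (254 and 30 cells), 1.47% and 1.35% in cone-like (32 and 34), 1.08% and 1.09% in bipolar-like (334 and 60) and 0.940% and 1.00% in amacrine-like cells (185 and 36). Rod-like cells were then 0.543 points above MG (SD 0.009, higher in 2 of 2 libraries), cone-like cells 0.472 points (SD 0.010, 2 of 2) and bipolar-like cells 0.149 points (SD 0.082, 2 of 2). Amacrine-like cells differed by 0.031 points (SD 0.117, 1 of 2) and microglia-like cells by 0.002 points (SD 0.174, n = 4), both within the spread between libraries. This order held for that bin and not for the shallower ones. At 5000 to under 10000 UMIs rod-like cells lay below MG in both libraries, at 1.95% and 1.62% against 2.54% and 2.63%, and at 2000 to under 5000 UMIs above it in one (3.09% against 2.61%) and below it in the other (2.45% against 2.73%). Cone-like, bipolar-like and amacrine-like cells lay below MG in every bin under 10000 UMIs that held at least 10 cells. Nor were the deep cells equal in depth, with medians of 22326 and 24210 UMIs in MG and 14595 and 11922.5 in rod-like cells. With 2 libraries no exact test can go below p = 0.5.

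**Figure D2:**
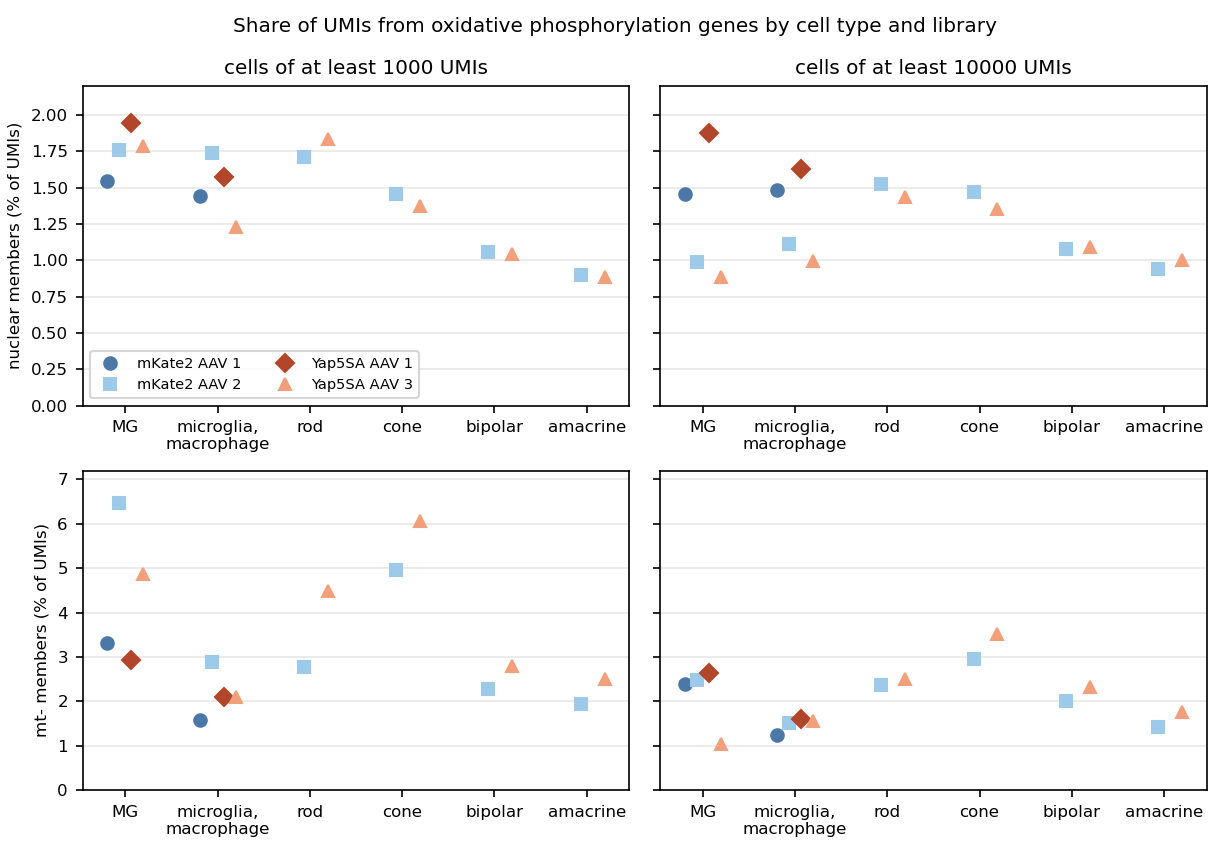
Share of UMIs taken by nuclear (top) and *mt-* (bottom) members in each cell type (horizontal axis), with 1 point per library, for cells of at least 1000 UMIs (left) and at least 10000 UMIs (right). In the right panels rod-like and cone-like cells lie at 1.35% to 1.53% of nuclear members, above the MG of their own libraries at 0.988% and 0.885%, an order that does not hold in the shallower bins (rod-like cells at 1.95% and 1.62% and MG at 2.54% and 2.63% at 5000 to under 10000 UMIs).

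The balance between the 2 genomes also differed by type with all cells. The log2 ratio of nuclear to *mt-* UMIs in microglia-like cells exceeded that of MG by 0.98, 1.15, 0.19 and 0.68 (mean 0.75, SD 0.42, higher in 4 of 4 libraries, exact permutation p = 0.125, the smallest that 4 libraries can give). In rod-like cells it exceeded that of MG by 1.19 and 0.16 (mean 0.67, SD 0.73, exact permutation p = 0.5, n = 2). In cells of at least 10000 UMIs the mean differences were 0.50 for microglia-like cells, higher in 3 of 4 libraries, and 0.07 for rod-like cells, higher in 1 of 2. In *Yap5SA* AAV replicate 1 the excess of 0.19 in microglia-like cells did not hold within any bin under 10000 UMIs. They lay at -2.58, -2.80 and -1.03 there, from the shallowest bin up, and MG at -1.76, -0.78 and -0.71. In *mKate2* AAV replicate 2 and *Yap5SA* AAV replicate 3 microglia-like cells lay above MG in each of these bins. *mKate2* AAV replicate 1 was not compared in them. In the bins of 2000 to under 5000 and 5000 to under 10000 UMIs the ratio of rod-like cells was above that of MG in both libraries, at -0.69 and -0.96 in the deeper of these bins against -1.71 and -1.01 in MG. At 1000 to under 2000 UMIs the 2 libraries split. Rod-like cells (14 and 40) lay at -2.01 and -3.18 there and MG at -2.41 and -2.07.

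Calls on single members followed the same pattern. Among 16918 genes tested with all cells, edgeR placed 12 members higher and 21 lower in rod-like cells than in MG (all genes 16.9% higher and 29.1% lower). The other neurons had members mostly on the low side. These were 3 higher and 40 lower in cone-like cells (14.8% and 23.1% of all genes), 1 and 60 in bipolar-like cells (20.8% and 24.2%), and 0 and 75 in amacrine-like cells (20.6% and 23.1%). Microglia-like cells had 16 higher and 16 lower (23.1% and 30.7%). Ribosomal protein genes moved with these shifts, with median log2 differences from MG of -0.77 in rod-like, -1.99 in cone-like, -1.80 in bipolar-like, -2.11 in amacrine-like and 1.58 in microglia-like cells. In cells of at least 10000 UMIs those medians were 0.01, -0.76, -0.38, -0.64 and 2.06, and their part in the members' differences was not tested.

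In cells of at least 10000 UMIs, with 15471 genes tested, the low side shrank. There were 16 members higher and 5 lower in rod-like cells (13.5% and 26.4% of all genes), 13 and 7 in cone-like cells (11.1% and 22.2%), and 5 and 7 in bipolar-like cells (15% and 21.4%). Amacrine-like cells had 1 higher and 13 lower (15.6% and 20.1%), and microglia-like cells 22 higher and 15 lower (22.1% and 34.4%). The median log2 difference of nuclear members moved from -0.28 to 0.24 in rod-like, from -0.69 to 0.09 in cone-like, from -0.92 to 0.06 in bipolar-like and from -1.13 to -0.15 in amacrine-like cells. The medians of all genes tested in the deep cells were -0.33, -0.34, -0.11 and -0.13. A member is described below as higher or lower in a type only where both fits placed it there, which held for 17 members in rod-like, 10 in cone-like, 8 in bipolar-like, 13 in amacrine-like and 28 in microglia-like cells. The share of all genes that both fits placed the same way was not counted, so these counts are not set against a background. No call on a member turned its direction between the fits.

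**Figure D3:**
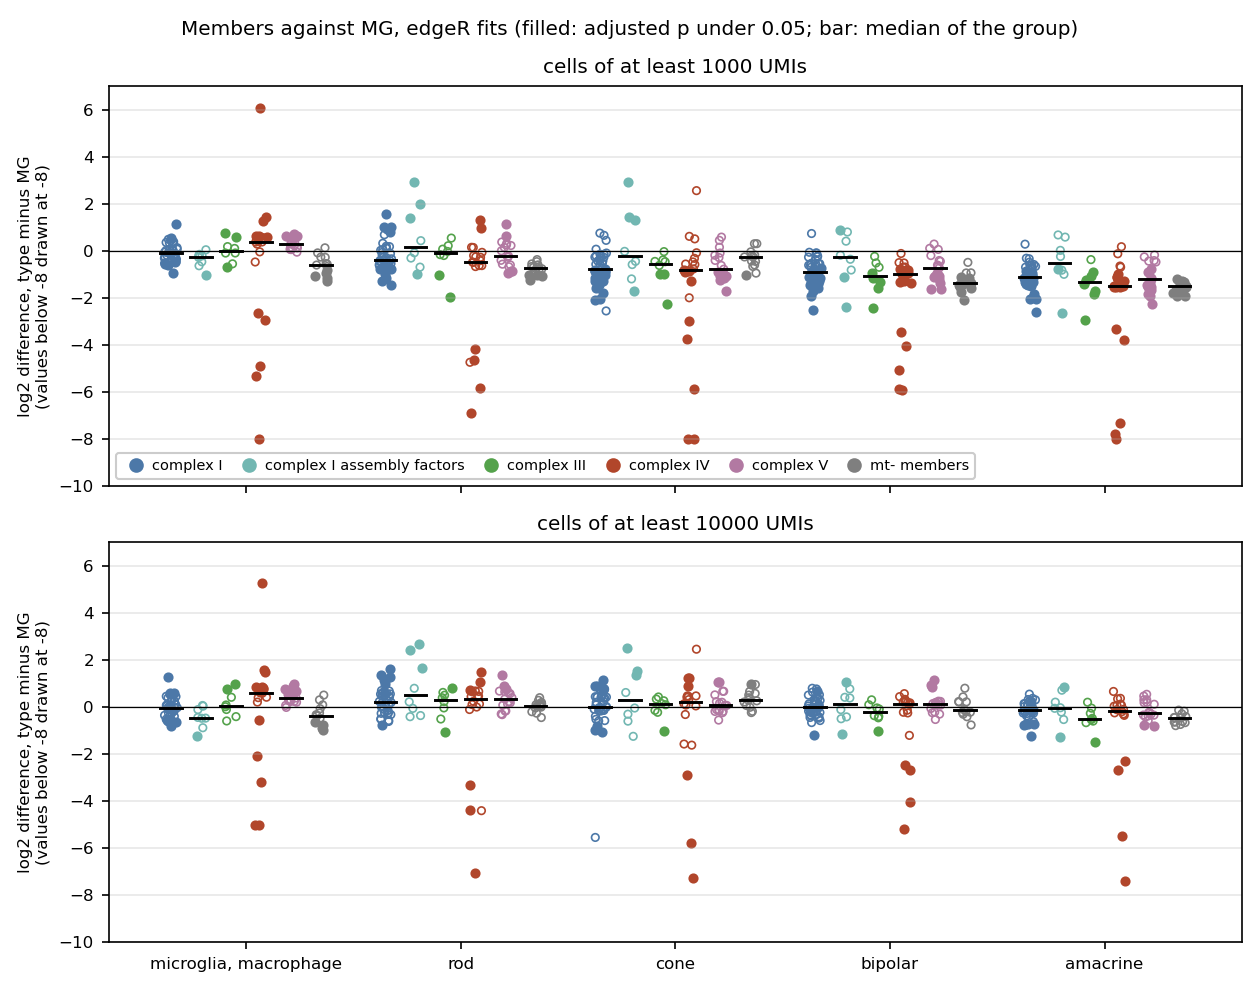
Log2 difference from MG (vertical axis) of each member by cell type (horizontal axis) and complex (colour), with cells of at least 1000 UMIs (top) and at least 10000 UMIs (bottom); filled points passed edgeR's test and bars are group medians. The broad downward shift of bipolar-like and amacrine-like cells in the top panel is not in the bottom panel, while a few complex IV members stay far below 0 in both.

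Complex I, the NADH dehydrogenase, held 38 nuclear members. Both fits placed 5 of them higher and 1 lower in rod-like cells, 0 and 3 in cone-like, 0 and 1 in bipolar-like, 0 and 5 in amacrine-like, and 2 and 3 in microglia-like cells. Of all genes, 16.9% were higher in rod-like cells with all cells and 13.5% with deep cells. Across the types compared, 23.1% to 30.7% of all genes were lower with all cells and 20.1% to 34.4% with deep cells. No pattern of complex I as a whole is read from these counts. *Ndufv1*, the subunit that takes electrons from NADH, was higher in rod-like cells by 1.01 on the log2 scale with all cells and by 1.28 with deep cells. *Ndufa10*, an accessory subunit, was higher there by 1.03 and 1.37. *Ndufa3*, a small accessory membrane subunit, was lower in all 4 neuron types, by -0.77 in rod-like, -0.98 in cone-like, -1.18 in bipolar-like and -1.23 in amacrine-like cells in cells of at least 10000 UMIs.

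The assembly factors of complex I build the enzyme without staying in it. *Ndufaf5*, a hydroxylase that modifies *Ndufs7*, was the member with the largest called difference above MG in both photoreceptor types. It stood at 19.2, 16.7, 16.2 and 17.8 CPM in MG, at 189.9 and 101.3 in rod-like cells and at 128.0 and 184.1 in cone-like cells. The groups were far apart and depth moved the difference little, from 2.91 to 2.67 on the log2 scale in rod-like and from 2.92 to 2.50 in cone-like cells (edgeR adjusted p = 1.37e-06 and 3.32e-06 with all cells). Bipolar-like cells lay between, and their log2 difference of 0.80 did not pass (adjusted p = 0.0536). In microglia-like cells *Ndufaf5* was lower than in MG, by -1.03. *Ndufaf6*, an early assembly factor, was higher in rod-like cells by 1.97 and 2.43 and in cone-like cells by 1.41 and 1.35 in the 2 fits. *Ndufaf4*, another early factor, was higher by 1.39 in rod-like, 1.32 in cone-like and 0.87 in bipolar-like cells. Thus 3 of 8 assembly factors were higher in both photoreceptor types, where 16.9% of all genes were higher in rod-like and 14.8% in cone-like cells (13.5% and 11.1% with deep cells).

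The promoter of *Ndufaf5* is shown because that member separated the photoreceptors most clearly. It was read from 250 bases before to 50 bases after the annotated start, chr2:140012319-140012618 on the + strand of GRCm39, with in capitals the run that holds GCATGCGC, a core of sites of NRF1, a transcription factor of many nuclear genes for mitochondria, on both strands.
Ndufaf5: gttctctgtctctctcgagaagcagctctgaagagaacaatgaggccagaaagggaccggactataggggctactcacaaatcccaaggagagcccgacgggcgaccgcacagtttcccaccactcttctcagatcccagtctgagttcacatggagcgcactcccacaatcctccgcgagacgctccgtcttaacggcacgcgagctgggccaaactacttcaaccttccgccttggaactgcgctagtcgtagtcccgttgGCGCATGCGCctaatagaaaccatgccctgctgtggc
GCATGCGC was found on either strand of the same window in 9 of 89 nuclear members (10.1%), *Ndufaf4* among them, and in 3.68% of 21418 protein-coding genes. *Uqcr11*, a member lower in the neuron types, also held it, and *Ndufaf6* did not. The letters AAGGTCA, a core of estrogen-related receptor sites, were in 7 of 89 (7.87%, against 4.43%), CCGGAAGT, an ETS core, in 5 (5.62%, against 4.35%) and AAGATGGCG, a YY1 core, in 2 (2.25%, against 1.33%). These matches are a description of the sequence only.

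Complex III, the cytochrome bc1 complex, held 8 nuclear members. *Uqcr11*, its smallest subunit, was lower in all 4 neuron types in both fits. It stood at 367, 446, 490 and 411 CPM in MG and at 136.9 and 120.6 in rod-like cells, with no overlap. In cells of at least 10000 UMIs its log2 difference was -1.05 in rod-like, -1.04 in cone-like, -1.04 in bipolar-like and -1.47 in amacrine-like cells. *Uqcrh*, the hinge subunit, was higher in microglia-like cells, by 0.77 and 0.97 in the 2 fits.

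Complex IV, cytochrome c oxidase, held members that separated MG from the 5 types tested. *Cox4i2*, the isoform of subunit 4 known from lung and from responses to low oxygen, stood at 539.8, 473.2, 528.5 and 615.5 CPM in MG. In microglia-like cells it stood at 8.62, 14.4, 4.69 and 7.44, in rod-like cells at 6.63 and 21.6, in cone-like cells at 2.46 and 26.7, in bipolar-like cells at 10.4 and 12.9, and in amacrine-like cells at 4.18 and 0. The lowest MG library was more than an order of magnitude above the highest library of these types. Its log2 difference from MG was -5.30 (SE 0.62) in microglia-like, -5.82 (SE 0.85) in rod-like, -5.86 (SE 0.91) in cone-like, -5.93 (SE 0.85) in bipolar-like and -7.78 (SE 0.97) in amacrine-like cells, with edgeR adjusted p between 3.01e-05 and 0.000462. In cells of at least 10000 UMIs these were -5.00, -7.04, -5.78, -5.17 and -7.41. *Cox4i1*, the isoform of most tissues, stood at 420.8, 655.4, 554.7 and 576.8 in MG and at 243.7 to 759.4 in these types, and none of its differences from the neurons passed in cells of at least 10000 UMIs.

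Of the UMIs of both isoforms, *Cox4i2* supplied 56.2%, 41.9%, 48.8% and 51.6% in MG. It supplied 0.796% to 1.85% in microglia-like cells, 1.20% and 4.14% in rod-like cells, and 34.4% and 30.6% in pericyte-like cells (157 and 36 UMIs of both), which were not tested. In MG its share lay between 39.7% and 60.6% in every depth bin of every library, so that it did not follow the depth gradient of the summed members. The 2 AAVs overlapped in this share.

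By cell, 75.6%, 68.7%, 80.4% and 73.5% of MG held a *Cox4i2* UMI, against 12.1%, 3.89%, 4.82% and 4.48% of microglia-like cells and 5.20% and 6.45% of rod-like cells. Median depths were 5208.5, 2577, 10172 and 2730 UMIs in MG, 11693, 3894.5, 11586.5 and 5346 in microglia-like and 9780 and 4433 in rod-like cells. With every cell thinned to 1000 UMIs the shares were 39.0%, 40.9%, 36.3% and 49.1% of MG, at most 1.37% of microglia-like cells and at most 2.98% of rod-like cells. Cone-like cells had 2.74% and 17.1% before thinning and 0 and 7.32% after it. Free RNA in the droplets gives low shares in cells that do not express a gene. Its part in the low shares of the other types was not tested, since no profile of empty droplets was used here, and no expression is read from them.

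The promoters of both isoforms are shown because this pair carries the sharpest difference. The windows are chr8:121394677-121394976 (*Cox4i1*, 74.7% G and C) and chr2:152595813-152596112 (*Cox4i2*, 62.0% G and C), both on the + strand of GRCm39, and capitals mark the run that holds ACGTG, the core of hypoxia response elements, on both strands.
Cox4i1: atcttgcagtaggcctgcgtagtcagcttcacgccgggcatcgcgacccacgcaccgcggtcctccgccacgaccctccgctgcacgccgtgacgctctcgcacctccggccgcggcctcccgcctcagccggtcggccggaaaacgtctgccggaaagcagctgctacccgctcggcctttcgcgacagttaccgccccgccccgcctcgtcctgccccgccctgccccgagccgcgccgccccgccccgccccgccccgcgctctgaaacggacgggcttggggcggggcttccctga
Cox4i2: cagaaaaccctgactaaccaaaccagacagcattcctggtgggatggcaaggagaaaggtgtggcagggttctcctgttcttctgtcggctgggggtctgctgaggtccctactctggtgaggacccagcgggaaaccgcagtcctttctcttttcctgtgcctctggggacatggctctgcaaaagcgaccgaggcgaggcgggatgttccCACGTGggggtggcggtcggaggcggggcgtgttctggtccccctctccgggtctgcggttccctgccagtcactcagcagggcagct
ACGTG was in the window of 20 of 89 nuclear members (22.5%) and of 20.7% of all protein-coding genes, so its presence is common, and *Cox4i1* has no match.

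**Figure D4:**
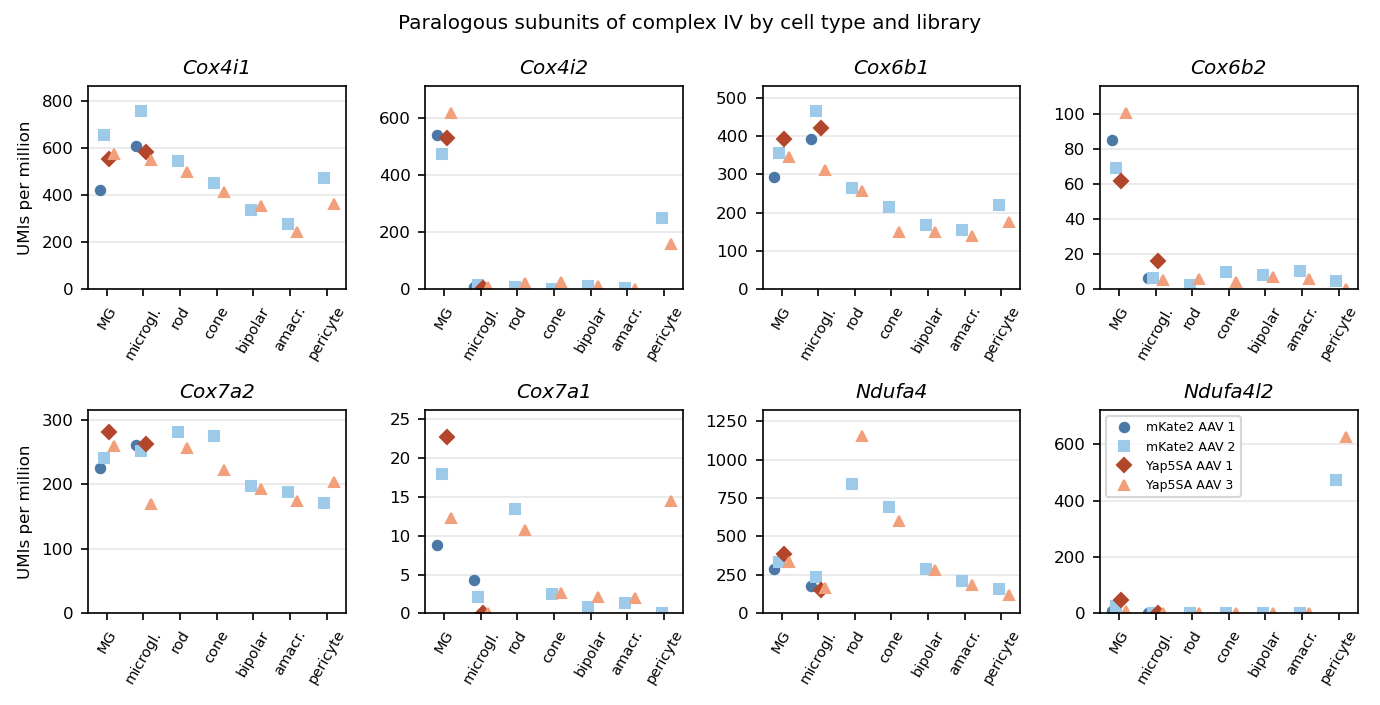
UMIs per 1000000 (CPM, vertical axes) of 4 pairs of complex IV paralogues by cell type (horizontal axis), with 1 point per library. *Cox4i2* lies between 473.2 and 615.5 in MG and at most 26.7 in the 4 neuron types compared and microglia-like cells, whereas *Cox4i1* overlaps between MG and several types.

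Other isoform pairs of complex IV showed a like split on a smaller scale. *Cox6b2*, known as the testis isoform of subunit 6b, stood at 85.4, 68.9, 61.9 and 100.4 CPM in MG and at no more than 16.4 in the 5 types compared. Ganglion-like cells, which were not compared, held 17 *Cox6b2* UMIs among 457579 in *mKate2* AAV replicate 2. That is a higher rate than in any of the 5 types compared, and a lower one than in MG. In *Yap5SA* AAV replicate 3 they held 1 among 85722. *Cox6b2* was lower than in MG in all 5 types compared in both fits, by -2.07 to -4.37 on the log2 scale in cells of at least 10000 UMIs. Of the UMIs of *Cox6b1* and *Cox6b2*, the second supplied 22.5%, 16.2%, 13.6% and 22.6% in MG and at most 6.48% in the 4 neuron types compared and microglia-like cells. *Cox7a1*, the heart and muscle isoform of subunit 7a, stood at only 8.76, 18.0, 22.7 and 12.3 in MG and at 13.4 and 10.8 in rod-like cells, which overlapped. It was lower than in MG in bipolar-like, amacrine-like and microglia-like cells in both fits, by -4.04, -3.77 and -2.95 with all cells.

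*Ndufa4* and *Ndufa4l2* are named for complex I but belong with complex IV, and *Ndufa4l2* is known as a target of hypoxia signalling and a pericyte gene. *Ndufa4* stood at 288 to 383 in MG, and in rod-like cells it was 839.9 and 1151.3 (log2 1.29, SE 0.31, edgeR adjusted p = 0.00254, and 1.47 in cells of at least 10000 UMIs). *Ndufa4l2* stood at 8.18, 25.6, 47.7 and 9.27 in MG and at 474.2 and 624.7 in pericyte-like cells, of which there were 29 and 7. In the smaller group, 43 UMIs came from 1 cell. In cone-like cells *Ndufa4l2* had 0 counts in 2 libraries, and MG of those libraries were at least 10.9-fold above the floor of 3 counts over the group. Only 2.56%, 5.76%, 11.1% and 1.96% of MG held a *Ndufa4l2* UMI.

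*Cox6a2* stood at 10.8, 30.5, 9.38 and 11.2 CPM in microglia-like cells and at 0, 0.29, 0 and 1.43 in MG, a low level in both but without overlap with all cells (log2 6.05, SE 1.01, edgeR adjusted p = 0.000344). In cells of at least 10000 UMIs the groups overlapped. Microglia-like cells then stood at 11.7, 26.7, 9.99 and 0 and MG at 0, 0.188, 0 and 2.62 (log2 5.26, edgeR adjusted p = 0.00988). With all cells *Cox5a*, a nuclear subunit of the matrix side, stood at 290.9, 251.0, 283.7 and 139.4 in microglia-like cells. In MG it stood at 94.9, 121.6, 141.1 and 102.7 (log2 1.45, SE 0.24, edgeR adjusted p = 7.96e-05). It was also higher in rod-like cells, by 0.97. *Cox7a2l*, named for its likeness to *Cox7a2*, was higher in microglia-like cells by 1.25 and 1.58 in the 2 fits. *Cox8b*, the muscle isoform of subunit 8, was carried by few cells. It stood at 0, 5.60, 4.71 and 51.9 in MG, and in *Yap5SA* AAV replicate 3 it came from 51 of 1585 MG, and 8 of them held most of its UMIs. No difference in *Cox8b* is drawn from this. *Cox8a*, *Cox7b*, *Cox6a1* and *Cox7a2*, the common isoforms, had means of 671.5, 264.6, 210.0 and 251.8 CPM over the MG libraries.

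Complex V, the ATP synthase, held 17 nuclear members. *Atp5b*, the catalytic beta subunit, stood at 193 to 228 CPM in MG and at 635.6 and 649.3 in rod-like cells (log2 1.12, SE 0.29, edgeR adjusted p = 0.00412, and 1.36 in cells of at least 10000 UMIs). It passed in cells of at least 10000 UMIs also in cone-like cells (1.07) and bipolar-like cells (0.84), but not with all cells (0.58 and 0.29). The genes *Atp5g1*, *Atp5g2* and *Atp5g3* encode one and the same mature c subunit of the rotor ring. *Atp5g1* and *Atp5g2* were higher in microglia-like cells in both fits, at 139.4 to 193.0 and 331.9 to 523.5 CPM there and at 109.8 to 164.4 and 235.1 to 350.7 in MG. *Atp5e*, the epsilon subunit, was lower in amacrine-like cells by -2.25 with all cells and by -0.79 in cells of at least 10000 UMIs, and higher in microglia-like cells by 0.63 and 0.98. In all, 5 of 17 members were higher in microglia-like cells in both fits and 0 lower, where 23.1% of all genes were higher with all cells and 22.1% with deep cells.

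The 13 *mt-* members encode 7 subunits of complex I, 1 of complex III, 3 of complex IV and 2 of complex V. In neurons, calls on them were 4, 1, 10 and 13 lower in rod-like, cone-like, bipolar-like and amacrine-like cells with all cells, and 0 were lower in each of them with cells of at least 10000 UMIs. The shares of all genes called lower with all cells were 29.1%, 23.1%, 24.2% and 23.1% in the same order. With cells of at least 10000 UMIs they were 26.4%, 22.2%, 21.4% and 20.1%. *mt-Nd5*, a core membrane subunit of complex I, was called higher in cone-like cells there (log2 0.96, SE 0.33, edgeR adjusted p = 0.0333) and not with all cells (0.30). Of all genes, 30.7% were lower in microglia-like cells with all cells and 34.4% with deep cells. Only in microglia-like cells did both fits place *mt-* members lower, and these 4 of 13 lay close to either share. These were *mt-Nd2*, *mt-Nd4l*, *mt-Nd5* and *mt-Cytb*, the last by -1.14 and -0.87. In the deep cells of *Yap5SA* AAV replicate 3 *mt-Cytb* went the other way, at 1385 CPM in microglia-like cells and 1169 in MG.

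The make-up of the *mt-* set differed between MG and microglia-like cells of the same library. *mt-Co1*, the catalytic subunit of complex IV, made up 9.85%, 10.7%, 11.1% and 10.3% of *mt-* UMIs in MG and 21.1%, 14.0%, 20.6% and 15.5% in microglia-like cells. *mt-Nd2* made up 7.39%, 9.56%, 7.23% and 11.3% in MG and 4.49%, 6.63%, 4.25% and 7.23% in microglia-like cells. Each pair pointed the same way in 4 of 4 libraries, where an exact test over libraries cannot go below p = 0.125. *mt-Cytb*, the core of complex III, made up 15.4%, 12.5%, 14.4% and 11.7% in MG and 9.14%, 9.88%, 8.57% and 9.22% in microglia-like cells.

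The make-up also followed the version of Cell Ranger. The ratio of *mt-Nd4l* to *mt-Nd4* UMIs was 0.303, 0.113, 0.423 and 0.164 in MG and 0.351, 0.117, 0.470 and 0.163 in microglia-like cells. It was higher in both 8.0.0 libraries than in both 9.0.1 libraries in either type. *mt-Co3* went the other way in MG, with 5.59% and 5.43% of *mt-* UMIs under 8.0.0 and 8.79% and 7.74% under 9.0.1. Library preparation and software version cannot be told apart here.

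These genes adjoin in the mitochondrial genome, and the stretch is shown because a tag there may belong to either gene. *mt-Nd4l* and *mt-Nd4* share 7 bases (capitals) within chrM:10152-10188, and *mt-Atp8* and *mt-Atp6* share 43 bases (capitals) within chrM:7912-7984, all on the + strand of GRCm39.
mt-Nd4l and mt-Nd4: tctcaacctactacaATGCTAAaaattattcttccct
mt-Atp8 and mt-Atp6: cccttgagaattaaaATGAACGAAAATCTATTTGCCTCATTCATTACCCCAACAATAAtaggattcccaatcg
Both pairs are transcribed as 1 RNA, so the split of their tags between the members is uncertain.

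**Figure D5:**
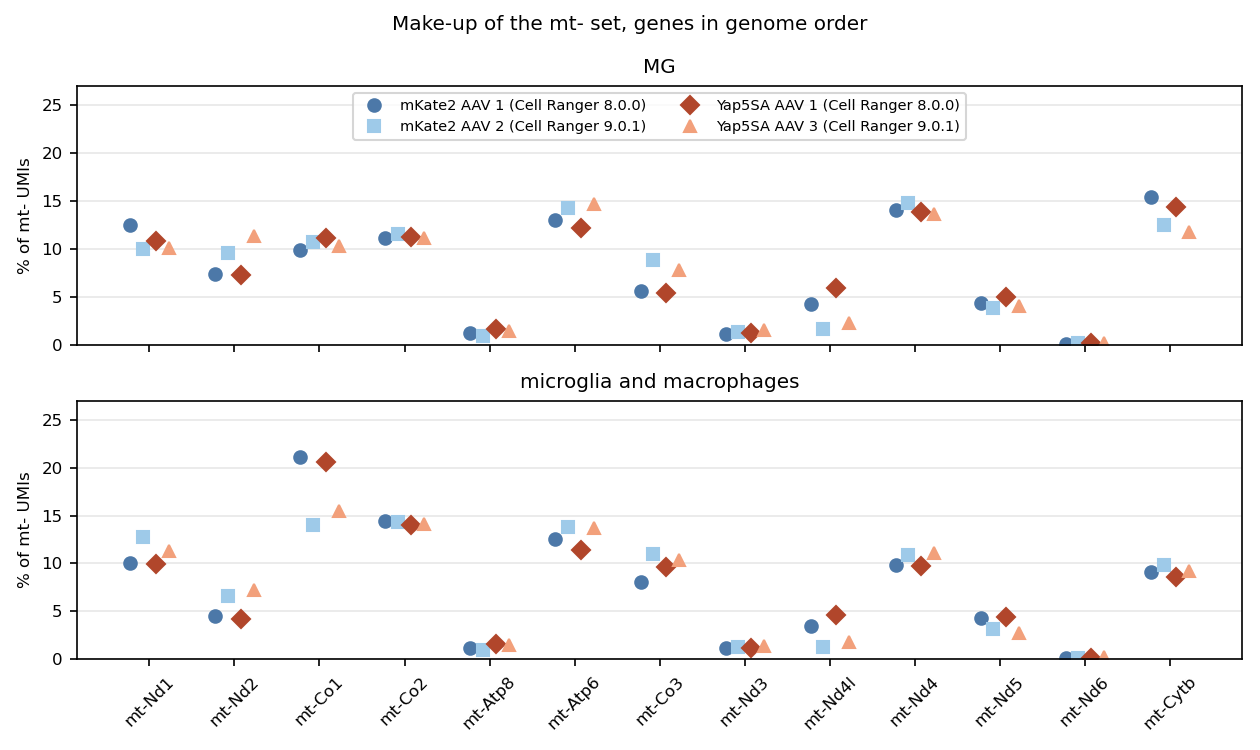
Share of *mt-* UMIs (vertical axis, %) taken by each *mt-* member in genome order (horizontal axis) in MG and in microglia- and macrophage-like cells, with 1 point per library. *mt-Co1* lies at 14.0% to 21.1% in the lower panel and at 9.85% to 11.1% in the upper one, and *mt-Nd4l* is higher in both 8.0.0 libraries.

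Of 9 genes of complex II and the electron carriers, 1 was higher and 3 lower in rod-like cells, 0 and 3 in cone-like, 0 and 5 in bipolar-like, 0 and 5 in amacrine-like, and 2 and 1 in microglia-like cells, and none was called between the AAVs. The shares of all genes called higher and lower were 16.9% and 29.1% in rod-like, 14.8% and 23.1% in cone-like, 20.8% and 24.2% in bipolar-like, 20.6% and 23.1% in amacrine-like, and 23.1% and 30.7% in microglia-like cells. In cells of at least 10000 UMIs the counts of these 9 genes were 1 and 1, 1 and 1, 0 and 3, 0 and 2, and 3 and 2 in the same order of types. *Cycs*, cytochrome c itself, was higher in microglia-like cells by 1.48 (SE 0.20, edgeR adjusted p = 8.27e-06) and in rod-like cells by 0.77 (adjusted p = 0.0189). Of 16 genes of mitochondrial transcription and biogenesis, 3 were higher and 2 lower in rod-like, 3 and 3 in cone-like, 3 and 4 in bipolar-like, 4 and 4 in amacrine-like, and 2 and 4 in microglia-like cells. Deep cells gave 3 and 1, 2 and 3, 2 and 2, 3 and 3, and 1 and 5. *Ppargc1a*, the coactivator that drives mitochondrial biogenesis, was higher than in MG in rod-like cells by 1.50 and in amacrine-like cells by 1.65, and lower in bipolar-like cells by -2.97 and in microglia-like cells by -3.80. Of 24 assembly factors outside the rule, 4 were higher and 3 lower in rod-like, 2 and 5 in cone-like, 1 and 6 in bipolar-like, 3 and 6 in amacrine-like, and 2 and 6 in microglia-like cells. In deep cells these were 5 and 2, 1 and 2, 1 and 1, 1 and 1, and 2 and 7.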

How the data were processed

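The authors made 10x 3′ libraries from sorted cells and deposited raw UMI counts per gene and cell from Cell Ranger (8.0.0 or 9.0.1 per the file headers). No further normalization had been applied. Counts of the cells of a type were summed per library (at least 10 cells) and tested with edgeR 4.0.16 (quasi-likelihood, filterByExpr, TMM, Benjamini-Hochberg over all genes, threshold 0.05), between AAVs over 4 libraries and between types with library as a block. DESeq2 1.42.0 was an alternative. Levels are CPM of the sum. Cells outside the MG rule were clustered with scanpy 1.11.5 (Leiden, resolution 1, 2000 variable genes without the members) and named from markers. Doublets were not called. Of the MG, 7, 32, 0 and 51 held at least 1% rod RNA. Intervals and floors (3 counts) cover counting error only. Named members were every *mt-* gene, the paralogous subunits, and the 5 largest calls each way per comparison. Promoters and overlaps came from GRCm39 with GENCODE M39, where all 103 members were found, 16 under a newer symbol. The members and lists were chosen with earlier results of these data known. Fits with cells of at least 10000 UMIs, and without cells holding other types' markers, were chosen after seeing the data. The tests were tested on simulated data. Those counts had a fixed spread and no difference between libraries other than size, so no error rate for these data is read from them. Retinas were pooled, and nothing ties the libraries to separate animals.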

Additional observations from a re-analysis of the deposited data

Results flagged for a closer look

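*Yap5SA* AAV replicate 2, which entered no comparison because its barcodes were those of replicate 1, held a nuclear member share of 1.92% in MG, above the *mKate2* AAV libraries at 1.54% and 1.76% and close to the 1.94% of replicate 1. It repeats that library and adds no replicate.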

How the results depend on the processing

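No paired analysis was possible because, with *Yap5SA* AAV replicate 2 left out, the AAV groups share only replicate number 1. With the Cell Ranger version as a block in place of replicate numbers, edgeR called 0 members and 0 genes between the AAVs, and 167 genes had an unadjusted p under 0.05. Leaving out 1 library at a time, the AAV difference in the nuclear share ranged from 0.107 to 0.321, in the *mt-* share from -2.56 to 0.582 (reversed without *mKate2* AAV replicate 2) and in the log2 ratio from 0.044 to 0.897, and no member was called. Members called against MG ranged from 12 to 31 in rod-like, 11 to 43 in cone-like, 18 to 63 in bipolar-like, 25 to 74 in amacrine-like and 16 to 23 in microglia-like cells, against 33, 43, 61, 75 and 32 with all 4 libraries. Without *mKate2* AAV replicate 2 the first 4 counts were 12, 11, 18 and 25. Without *Yap5SA* AAV replicate 3 they were 18, 18 and 37 in rod-like, cone-like and bipolar-like and 16 in microglia-like cells, and without *mKate2* AAV replicate 1 the last was 19. A lone library left in a type was assumed to vary like the others. The counts of members called are given without the share of all genes called in the same fits. No property of the members is read from their fall. The log2 ratio against MG ranged from 0.160 to 1.19 in rod-like and from 0.616 to 0.936 in microglia-like cells.

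Cells of at least 10000 UMIs gave 21, 20, 12 and 14 calls in the 4 neuron types. Over all members the sign of the difference turned in that fit for 35, 45, 45 and 29 in rod-like, cone-like, bipolar-like and amacrine-like and 10 in microglia-like cells, called or not. Of the members named by the rule and called in either fit, these reversed: *mt-Nd6* in rod-like cells (0.038), *Cox4i1* (0.13), *Cox7a2l* (0.45) and *Cox8a* (0.87) in cone-like cells, *Atp5g2* (0.10), *Cox4i1* (0.11), *Cox7a2l* (0.20), *Cox8a* (0.24), *mt-Co2* (0.22) and *mt-Nd6* (0.21) in bipolar-like cells, and *Cox7a2l* (0.070) and *Cox7b* (0.076) in amacrine-like cells. Fewer cells and fewer genes entered it, and the cause was not tested. Of the other values of named members under alternatives, 1811 kept direction and side of the threshold, 146 lost their call and 52 gained one. DESeq2's scaling moved the median of all genes in cone-like cells from -0.34 to -0.12.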

Other observations

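Clusters outside the compared types held extreme shares. In ganglion-like cells (118 and 45 in the 9.0.1 libraries) the *mt-* members took 17.8% and 39.4% of UMIs and the nuclear members 3.15% and 2.40%, at median depths of 1795 and 1452 UMIs. An unnamed cluster of 385 cells led by *Mt1* and *Hopx* had 3.63% nuclear members, 4.89% *mt-* members and 15.4% ribosomal protein RNA. Rod-like cells fell into a cluster of 391 cells with 3.03% nuclear and 7.04% *mt-* members and 0.037% of *Malat1*, *Neat1* and *Meg3*, and a cluster of 535 cells with 1.44%, 2.34% and 3.03%.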
